A study of Neogale vison with 6 samples.

Results

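The solute carrier family 25 (SLC25) comprises mainly carriers that move metabolites across the inner membrane of mitochondria. The members described here are the genes of the count table whose symbol is SLC25A followed by a number, which are 34 of the 24526 genes listed. Of these, 27 had enough reads to be tested, and each tested member had at least 17 reads in every library, so that no member entered the test through 1 group alone. The other 7 members (SLC25A18, SLC25A34, SLC25A41, SLC25A45, SLC25A47, SLC25A48 and SLC25A53) had at most 13 reads in any library, and no change is given for them. The symbols leave out 6 rows that the table describes as members of the same family under another symbol or none, and these are given separately.

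The RNA came from Mv1Lu, an established epithelial cell line of mink lung. The 3 control libraries are from untreated cells. The 3 libraries of cells subjected to cholesterol depletion (CD) are from cells kept for 16 h with lovastatin, a statin, at 50 μM, together with mevalonate at 50 μM, the serum of the medium being lipoprotein-deficient (LPDS, 10%). The parts of the CD treatment were applied together and cannot be told apart. The labels do not say that the libraries of a group came from separate cultures, so the p-values measure the spread between these libraries, which may be technical.

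Reads on genes numbered between 13473820 and 18633764 per library. Levels are given as CPM, the counts scaled to the reads on genes of each library, after TMM scaling, with mean ± SD of 3 libraries per group, and the change from control to CD as log2 fold change (log2FC) with its standard error (SE). A gene was called where its Benjamini-Hochberg adjusted p over all 12148 genes tested (FDR) was below 0.05 in edgeR. The second principal component, with 12.9% of the variance, separated the CD libraries from each other, with CD replicates 1 and 3 at its ends. Reads that mapped nowhere made up 18.4% and 13.6% of control replicates 1 and 2 and between 3.54% and 9.37% of the other libraries. Of the epithelial markers, KRT7 and KRT19 were at 7130 ± 265 and 936 ± 66.9 CPM in control cells, whereas EPCAM and CDH1 were at 0.162 ± 0.117 and 0.181 ± 0.0610 CPM. SFTPB, SFTPC and AQP5, which mark alveolar cells, had no reads in any library, and the 7 lung markers found summed to at most 4.73 CPM in control and 3.44 CPM in CD, with 1 of 2 tested lower. The summed level of the 8 epithelial markers found was between 7930 and 8580 CPM in the control and between 1680 and 2080 CPM in the CD libraries, with 1 higher and 2 lower of 5 tested. Nearly all of these sums was KRT7 and KRT19, which were at 1260 ± 156 and 458 ± 77.1 CPM in CD. CLDN4 rose from 0.603 ± 0.231 to 7.03 ± 1.11 CPM, and OCLN and TJP1 were not called. The 5 leukocyte markers found summed to between 5.64 and 6.89 CPM in control and to between 21.8 and 26.9 CPM in CD, with 3 of 3 tested higher, while PTPRC was at 0 in control and 0.0240 ± 0.0416 CPM in CD. The 8 fibroblast markers summed to between 310 and 387 CPM in control and to between 183 and 232 CPM in CD, with 4 of 5 tested lower and THY1 at 0 throughout. The 5 endothelial markers summed to between 206 and 221 CPM in control and to between 75.9 and 124 CPM in CD, nearly all of it TEK, with 1 higher and 1 lower of 2 tested and PECAM1 and CDH5 at 0 in control. These marker counts stand beside 24.8% higher and 22.9% lower of all genes tested. The part of such marker shifts in the changes below was not tested. In bulk RNA, fewer cells of a type and less RNA per cell cannot be told apart.

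SLC25 proteins are made in the cytosol from nuclear genes, and most are inserted into the inner membrane. Most of these exchange or import a narrow set of substrates, so the family links cytosolic pathways to the matrix. The citrate carrier SLC25A1 has a particular place in lipid synthesis. It exports citrate from mitochondria, ATP citrate lyase (ACLY) splits that citrate in the cytosol, and the acetyl-CoA formed is the carbon source of both fatty acids and sterols.

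In CD cells, 8 of the 27 tested members were higher (29.6%) and 5 were lower (18.5%) in edgeR, while 14 were not called. Over all genes tested, the shares were 24.8% higher, 22.9% lower and 47.7% called in either direction, beside 48.1% of the members. The median absolute log2FC was 0.46 over the members and 0.47 over all genes, and the medians with sign were -0.11 and 0.06. The family was thus changed about as often and as much as the transcriptome at large, and the changes went both ways. For 19 members the CD and the control libraries did not overlap, which is 70.4% of those tested, against 58.0% of all genes. All 13 called members were among these 19. The summed level of all 34 members lay between 2520 and 2560 CPM in the control and between 2220 and 2570 CPM in the CD libraries, so that the groups overlapped in their total. Without CD replicate 3, 9 members were lower, with SLC25A3, SLC25A12, SLC25A33 and SLC25A38 added, and 9 were higher, with SLC25A46 added. Calls over all genes rose as well without this library, to 29.3% higher and 29.2% lower of 12330 tested.

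**Figure D1:**
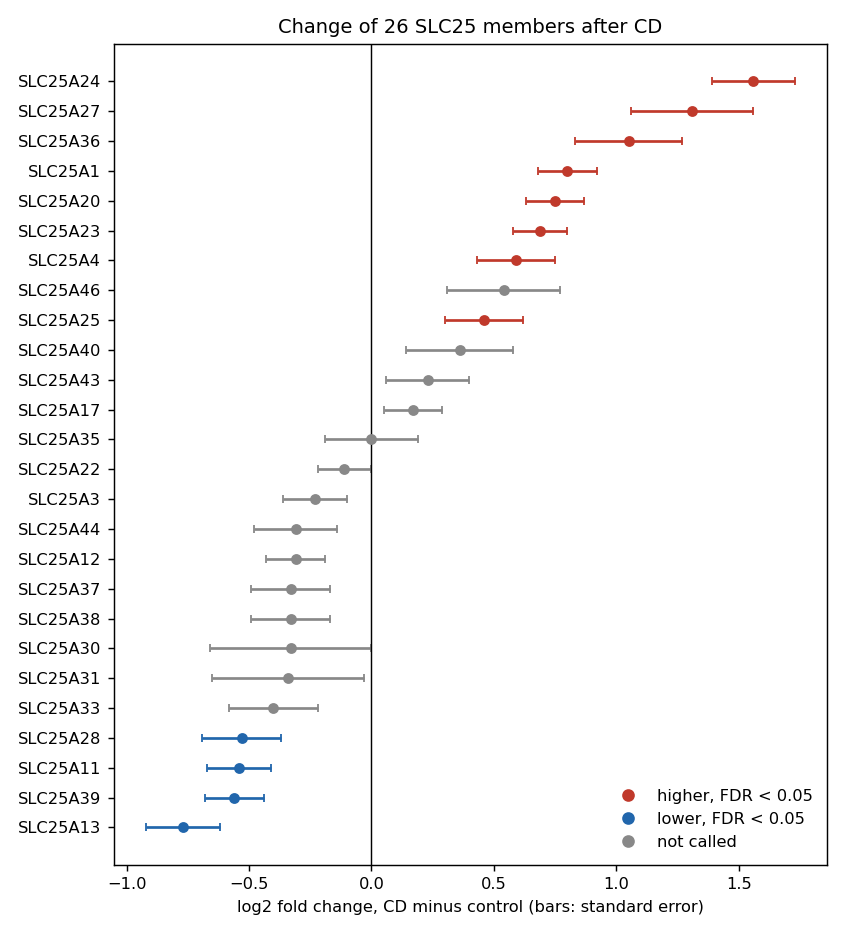
Log2 fold change of CD against control (horizontal axis) for 26 tested SLC25 members, with the standard error as bars. Red members were higher and blue members lower by the edgeR call (FDR under 0.05), while grey members were not called. The values run from -0.77 (SLC25A13) to 1.56 (SLC25A24).

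SLC25A1 (ENSNVIG00000022410), the citrate carrier, was higher in CD. Its level was 253, 231 and 253 CPM in control replicates 1, 2 and 3, and 372, 468 and 448 CPM in CD replicates 1, 2 and 3. No CD library came down to the control level, and CD replicate 1 was the lowest of its group. The mean rose from 246 ± 12.8 to 429 ± 50.8 CPM, which is 1.75-fold and a log2FC of 0.80 ± 0.12 SE (edgeR FDR 0.000467). For this gene alone, the exact two-sided permutation test gave p = 0.1, the smallest value that 3 libraries against 3 allow. The call of SLC25A1 held in all 14 alternative analyses, among them those that left out 1 library, and its log2FC lay between 0.71 and 0.91 in these.

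The lipid synthesis genes beside SLC25A1 were examined as lists. Counts in these and the later lists stand beside 24.8% higher and 22.9% lower of all genes tested. No list was tested as a set. Of 13 genes for the cytosolic use of citrate and acetate in fatty acid synthesis that were found and tested, 7 rose and 2 fell in CD (median log2FC 0.55). ACLY, which uses the exported citrate, was at 503, 529 and 640 CPM in control and at 2730, 2610 and 1630 CPM in CD replicates 1, 2 and 3. All CD libraries were above the control libraries, and CD replicate 3 was the lowest of them. ACLY thus had a log2FC of 2.06 ± 0.20 SE (edgeR FDR 3.07e-05). ACSS2, which makes acetyl-CoA from acetate and so bypasses citrate, rose from 194 ± 11.6 to 439 ± 24.6 CPM (log2FC 1.18 ± 0.11 SE, edgeR FDR 2.00e-05).

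Further along the pathway the members of the list did not move alike. Fatty acid synthase (FASN) was at 2750, 2840 and 4160 CPM in control and at 7110, 6930 and 4460 CPM in CD replicates 1, 2 and 3. The groups did not overlap, but control replicate 3 and CD replicate 3 were close (log2FC 0.92 ± 0.22 SE, edgeR FDR 0.00662). ME1, which turns malate into pyruvate and supplies NADPH, rose from 96.6 ± 5.56 to 168 ± 12.8 CPM, with the same log2FC as SLC25A1, 0.80 (SE 0.11, edgeR FDR 0.000273). SCD, which desaturates stearate, had a log2FC of 0.55 (edgeR FDR 0.00843), but its call was lost without control replicate 1 (edgeR FDR 0.0554). Acetyl-CoA carboxylase ACACA, between ACLY and FASN, was at 80.7, 86.2 and 95.5 CPM in control and at 120, 94.3 and 39.6 CPM in CD replicates 1, 2 and 3. The CD libraries spanned the control libraries, and ACACA was not called (log2FC -0.04 ± 0.31 SE, edgeR FDR 0.917). Without CD replicate 3 its log2FC turned to 0.26 and was called (edgeR FDR 0.0467). The members that were lower were ACACB, the carboxylase isoform at the outer mitochondrial membrane (log2FC -2.73), and SREBF1, which encodes the transcription factor SREBP-1 (-0.74).

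Of 19 genes of cholesterol biosynthesis found and tested, 17 were higher and 1 was lower, with a median log2FC of 1.39. HMGCS1, which consumes cytosolic acetyl-CoA units to make HMG-CoA, was at 112, 135 and 142 CPM in control and at 1640, 1410 and 1160 CPM in CD replicates 1, 2 and 3, far apart without overlap. Its log2FC was 3.43 (SE 0.17, edgeR FDR 4.17e-07). The member that was lower was LBR, at -1.12, and without CD replicate 3 there were 2 lower members. Without control replicate 1 or CD replicate 2, 14 were higher. SLC25A1, at 0.80, thus lay below the median of the sterol list and above that of the fatty acid list.

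**Figure D2:**
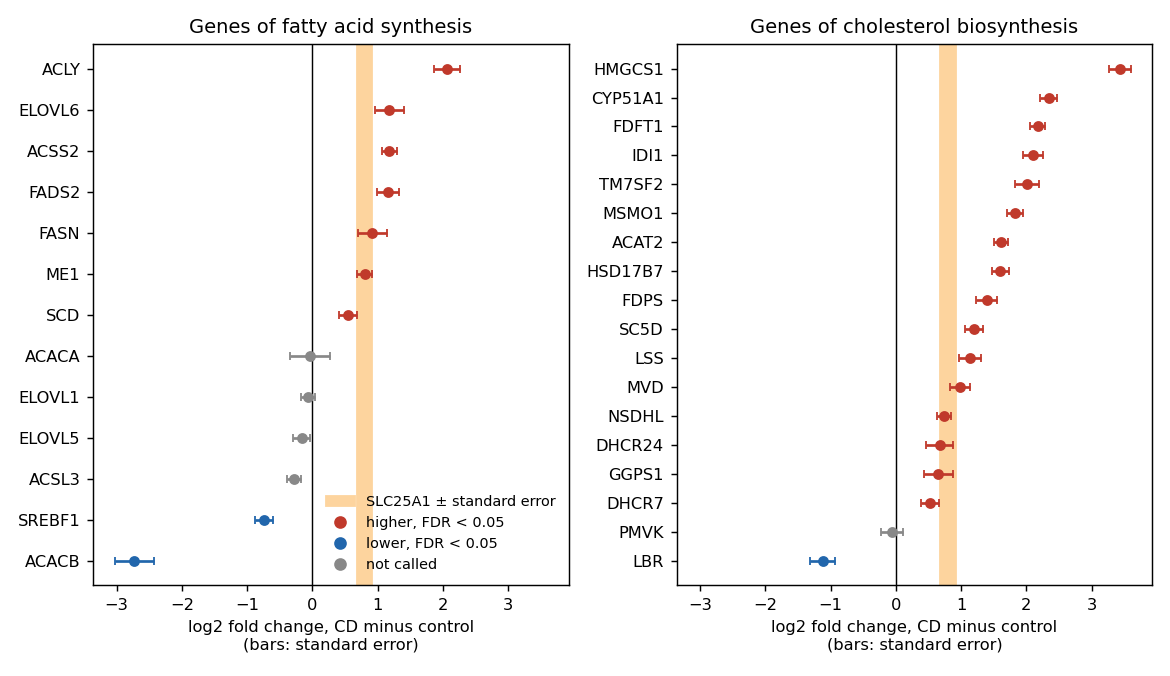
Log2 fold change of CD against control (horizontal axis, bars are standard errors) for genes of fatty acid synthesis (left) and cholesterol biosynthesis (right). The shaded band marks SLC25A1, 0.80 with its standard error of 0.12. FASN and ME1 overlap the band, and ACLY and HMGCS1 lie above it.

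Ratios of 2 genes within a library do not depend on the scaling of the libraries. The count of SLC25A1 divided by that of ACLY was 0.504, 0.437 and 0.396 in the control libraries, taken in the order of their replicate numbers, and 0.136, 0.179 and 0.276 in the CD libraries. All 3 CD libraries had a lower ratio than the control libraries, and the mean ratio was 2.35-fold lower on the log scale (log2 difference -1.23, exact permutation p = 0.1, the lowest that can occur, 0.14 adjusted over 7 pairs). Against HMGCS1, the ratio was 2.25, 1.71 and 1.78 in control and 0.227, 0.331 and 0.387 in CD, again without overlap and 6.19-fold lower (log2 difference -2.63, exact permutation p = 0.1). Against FASN, the ratio was 0.0921, 0.0814 and 0.0608 in control and 0.0523, 0.0675 and 0.1 in CD. These groups overlapped (log2 difference -0.12, exact permutation p = 0.8), and the difference turned to 0.10 without CD replicate 1 and to 0.01 without control replicate 1. SLC25A1 was thus lower relative to ACLY and HMGCS1 in every CD library than in any control library, whereas no difference from FASN was detectable with these libraries.

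The other carboxylate carrier, SLC25A11, exchanges 2-oxoglutarate for malate as part of the malate-aspartate shuttle. It was at 460, 448 and 447 CPM in control and at 262, 318 and 353 CPM in CD replicates 1, 2 and 3. The control libraries were close together, and all CD libraries were lower (log2FC -0.54 ± 0.13 SE, edgeR FDR 0.00639). The 2 carboxylate carriers with a tested symbol thus moved in opposite directions.

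SLC25A13 (citrin) and SLC25A12 (aralar) export aspartate in exchange for glutamate in the same shuttle. SLC25A13 was at 55.0, 64.2 and 57.4 CPM in control and at 40.8, 32.8 and 30.0 CPM in CD, a fall without overlap of the groups (log2FC -0.77 ± 0.15 SE, edgeR FDR 0.00180). SLC25A12 was at 62.9, 75.7 and 63.8 CPM in control and at 57.0, 53.6 and 52.4 CPM in CD. The groups of SLC25A12 did not overlap, but it was not called (log2FC -0.31 ± 0.12 SE, edgeR FDR 0.0580), though it was called with DESeq2 (FDR 0.0482) and without CD replicate 3 (edgeR FDR 0.0167). The ratio of SLC25A12 to SLC25A13 was 1.14, 1.18 and 1.11 in control and 1.40, 1.63 and 1.75 in CD, higher in all 3 CD libraries (log2 difference 0.47, exact permutation p = 0.1, the smallest possible, 0.14 adjusted over 7 pairs). Of the 7 enzymes of this shuttle and of glutamate use that were found, 4 were lower and 2 higher. MDH2, which handles malate in the matrix, had a log2FC of -0.86 (edgeR FDR 0.000524), and GOT2, which makes the aspartate that these carriers export, of -0.39 (edgeR FDR 0.0239). The call of GOT2 was lost without control replicate 1 or 3 (edgeR FDR 0.0847 and 0.0903). ASNS, which uses aspartate, was the lowest at -1.39. The number of higher enzymes fell to 1 without control replicate 2 or 3 or CD replicate 2.

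The other tested amino acid carriers were not called. SLC25A22, a glutamate carrier, had a log2FC of -0.11 ± 0.11 SE, the branched-chain amino acid carrier SLC25A44 of -0.31 (0.17), and SLC25A38, which brings in glycine for heme synthesis, of -0.33 (0.16). For SLC25A38 the CD libraries, at 16.5, 22.0 and 23.5 CPM, lay below the control libraries, at 27.1, 24.6 and 26.4 CPM, and SLC25A38 was called at -0.47 without CD replicate 3 (edgeR FDR 0.00692), while its log2FC was -0.18 without CD replicate 1. SLC25A44 was at -0.48 without CD replicate 2 and -0.19 without CD replicate 3, and SLC25A22 at -0.21 without CD replicate 2 and -0.07 without CD replicate 1.

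Of the 6 tested carriers of adenine nucleotides and phosphate, 4 were higher and 0 lower in edgeR. The shares over all genes tested were 24.8% higher and 22.9% lower. Without control replicate 1 or 3 the calls of SLC25A4 and SLC25A25 were lost, leaving 2 higher, and without CD replicate 3 SLC25A3 was lower. With all libraries, 0 were lower at an unadjusted p under 0.05, with DESeq2 or with limma-voom, and DESeq2 called 3 higher. The ATP-Mg/phosphate carriers SLC25A23, SLC25A24 and SLC25A25 bind calcium and adjust the adenine nucleotide content of the matrix. SLC25A24 was at 19.3, 21.5 and 17.4 CPM in control and at 67.0, 45.5 and 59.4 CPM in CD replicates 1, 2 and 3. The lowest CD library was above the highest control library by a wide margin, and the log2FC of 1.56 ± 0.17 SE (edgeR FDR 5.61e-05), or 2.95-fold, was the largest rise in the family. SLC25A23 rose from 110 ± 8.41 to 177 ± 12.6 CPM (log2FC 0.69 ± 0.11 SE, edgeR FDR 0.000772). SLC25A25 was at 11.7, 13.0 and 14.7 CPM in control and at 18.8, 18.7 and 16.5 CPM in CD. The groups did not overlap, but this call (log2FC 0.46, edgeR FDR 0.0387) was lost in 8 of 14 alternative analyses, among them DESeq2 (FDR 0.0507) and the omission of any library but CD replicate 3 (edgeR FDR between 0.0559 and 0.176). The ratio of SLC25A24 to SLC25A25 was 1.65, 1.66 and 1.19 in control and 3.56, 2.43 and 3.60 in CD, higher in all CD libraries (log2 difference 1.09, exact permutation p = 0.1, the smallest possible, 0.14 adjusted over 7 pairs).

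SLC25A4, SLC25A5, SLC25A6 and SLC25A31 exchange ADP for ATP, and SLC25A3 brings in phosphate for ATP synthesis. SLC25A4 was at 26.6, 32.2 and 27.5 CPM in control and at 38.4, 39.5 and 52 CPM in CD replicates 1, 2 and 3, higher in every CD library and highest in replicate 3. Its log2FC was 0.59 (SE 0.16, edgeR FDR 0.0115), and the call was lost without control replicate 1 or 3 (edgeR FDR 0.0597 and 0.0566). A row without a symbol (ENSNVIG00000022303), described as family member 5, was at 188, 199 and 205 CPM in control and at 166, 164 and 174 CPM in CD. The CD libraries were all lower, yet the row was not called (log2FC -0.23 ± 0.10 SE, edgeR FDR 0.0861), though it was at -0.29 without CD replicate 3 (edgeR FDR 0.0184). The ratio of SLC25A4 to this row was 0.141, 0.162 and 0.134 in control and 0.231, 0.241 and 0.299 in CD, a 1.75-fold higher ratio without overlap (log2 difference 0.81, exact permutation p = 0.1, the smallest possible, 0.14 adjusted over 7 pairs). As the ADP/ATP carriers are close paralogs, reads that fit more than 1 of them may have been left out or shared out in counting. SLC25A3 was at 739, 828 and 799 CPM in control and at 619, 616 and 778 CPM in CD replicates 1, 2 and 3. The groups overlapped through CD replicate 3, and the log2FC of -0.23 was not called (edgeR FDR 0.165), but it was -0.39 and called without that library (edgeR FDR 0.00297). SLC25A31, at 2.80 ± 0.702 CPM in control cells against 2.23 ± 0.799 CPM in CD, was not called, and its log2FC of -0.34 varied between -0.67 without CD replicate 2 and -0.09 without CD replicate 1.

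**Figure D3:**
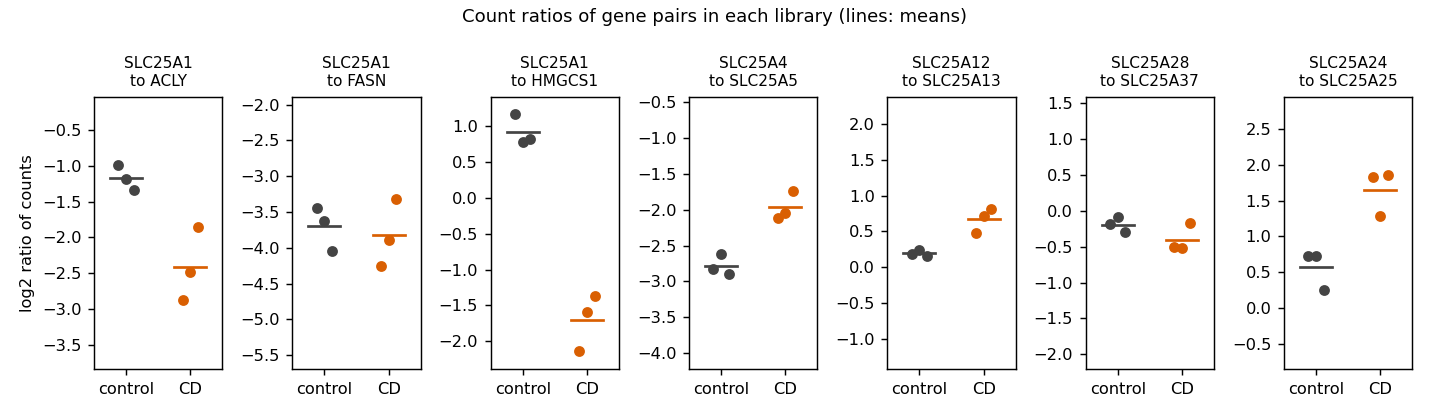
Log2 ratio of the counts of 2 genes in each library (points) with the group means (lines), for control (grey) and CD (orange), with the same vertical span of 3.8 log2 units in each panel. The groups do not overlap for SLC25A1 to ACLY, SLC25A1 to HMGCS1, SLC25A4 to SLC25A5 (the row described as family member 5), SLC25A12 to SLC25A13 and SLC25A24 to SLC25A25.

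The citric acid cycle makes the citrate that SLC25A1 exports. Of 23 genes of pyruvate entry and this cycle that were found, 3 were higher and 6 lower (median log2FC -0.13). This stands beside 24.8% higher and 22.9% lower of all genes. Without control replicate 1, 2 or 3, 3 were lower. The highest was IDH1, the cytosolic and peroxisomal isocitrate dehydrogenase, at 34.6 ± 1.87 CPM in control cells against 134 ± 6.22 CPM in CD (log2FC 1.96 ± 0.11 SE, edgeR FDR 1.05e-06), and the lowest was MDH2.

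Among the carriers of cofactors and nucleotides, SLC25A36, a carrier of pyrimidine nucleotides, was at 5.23, 5.49 and 4.96 CPM in control and at 14.1, 9.20 and 9.15 CPM in CD replicates 1, 2 and 3. All CD libraries were above control and replicate 1 stood out above the others (log2FC 1.05 ± 0.22 SE, edgeR FDR 0.00296). Its relative SLC25A33 averaged 10.4 ± 0.873 CPM in control cells against 7.90 ± 1.03 CPM in CD and was not called (log2FC -0.40 ± 0.18 SE, edgeR FDR 0.0931), though it was called at -0.54 without CD replicate 3 (edgeR FDR 0.0141). The difference between both carriers was not tested. SLC25A17, the peroxisomal carrier of cofactors, had a log2FC of 0.17 ± 0.12 SE and was not called.

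SLC25A20 exchanges acylcarnitines for carnitine and so admits fatty acids to oxidation in the matrix. It was at 33.3, 37.8 and 37.4 CPM in control and at 56.5, 62.6 and 63.0 CPM in CD, without overlap (log2FC 0.75 ± 0.12 SE, edgeR FDR 0.000681), and it was called in all 14 alternative analyses. Of the 6 genes of the carnitine cycle tested, 1 was higher and 0 were lower in edgeR, DESeq2 and limma-voom alike, 0 were lower at an unadjusted p under 0.05, and 2 were higher without control replicate 2 or CD replicate 3. The called gene was CRAT, carnitine acetyltransferase, which rose from 83.6 ± 6.69 to 140 ± 13.2 CPM (log2FC 0.75, edgeR FDR 0.000634). CPT1A, which makes the acylcarnitines that SLC25A20 takes up, averaged 37.5 ± 4.76 CPM in control cells against 27.8 ± 11.6 CPM in CD and was not called (log2FC -0.43 ± 0.28 SE, edgeR FDR 0.233). CD replicate 3 was the lowest library, at 14.6 CPM beside 35.8 and 33.0 CPM in CD replicates 1 and 2, and the log2FC of CPT1A was -0.16 without it.

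Among the carriers of iron and glutathione, 2 of 4 were lower, beside 22.9% of all genes tested. SLC25A39, a glutathione carrier, was at 291, 251 and 256 CPM in control and at 157, 186 and 198 CPM in CD replicates 1, 2 and 3, lower in each CD library (log2FC -0.56 ± 0.12 SE, edgeR FDR 0.00426). The related SLC25A40 averaged 2.62 ± 0.405 CPM in control cells against 3.36 ± 0.364 CPM in CD and was not called (edgeR FDR 0.208). SLC25A28 (mitoferrin 2), which imports iron, was at 17.8, 18.1 and 21.0 CPM in control and at 12.2, 13.1 and 14.2 CPM in CD. The groups did not overlap (log2FC -0.53 ± 0.16 SE, edgeR FDR 0.0181), but the call was lost without control replicate 3 (edgeR FDR 0.0925). SLC25A37 (mitoferrin 1) was at 20.1, 19.3 and 25.8 CPM in control and at 17.3, 18.7 and 16.0 CPM in CD and was not called (log2FC -0.33 ± 0.16 SE, edgeR FDR 0.125, and -0.19 without control replicate 3). The ratio of the mitoferrins, SLC25A28 to SLC25A37, overlapped between the groups, with a log2 difference of -0.21 (exact permutation p = 0.3). Of 11 genes found of a list for heme synthesis, iron-sulfur clusters and iron uptake, 3 were higher and 4 lower. The highest was the iron-sulfur scaffold ISCU at 1.46. The others that were higher were FECH (1.26) and ALAS1 (1.18), both enzymes of heme synthesis. Among those lower were ALAD (-1.37) and UROS (-0.51), cytosolic enzymes of heme synthesis, and TFRC (-0.85), the transferrin receptor of the cell surface. The number lower was 2 without control replicate 1 or 2 and 1 without control replicate 3. The calls lost included those of TFRC on leaving out any 1 control library or CD replicate 2 (edgeR FDR between 0.0634 and 0.107) and of UROS without control replicate 2 or 3 (0.0501 and 0.0593), and TFRC was at -1.28 without CD replicate 1.

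**Figure D4:**
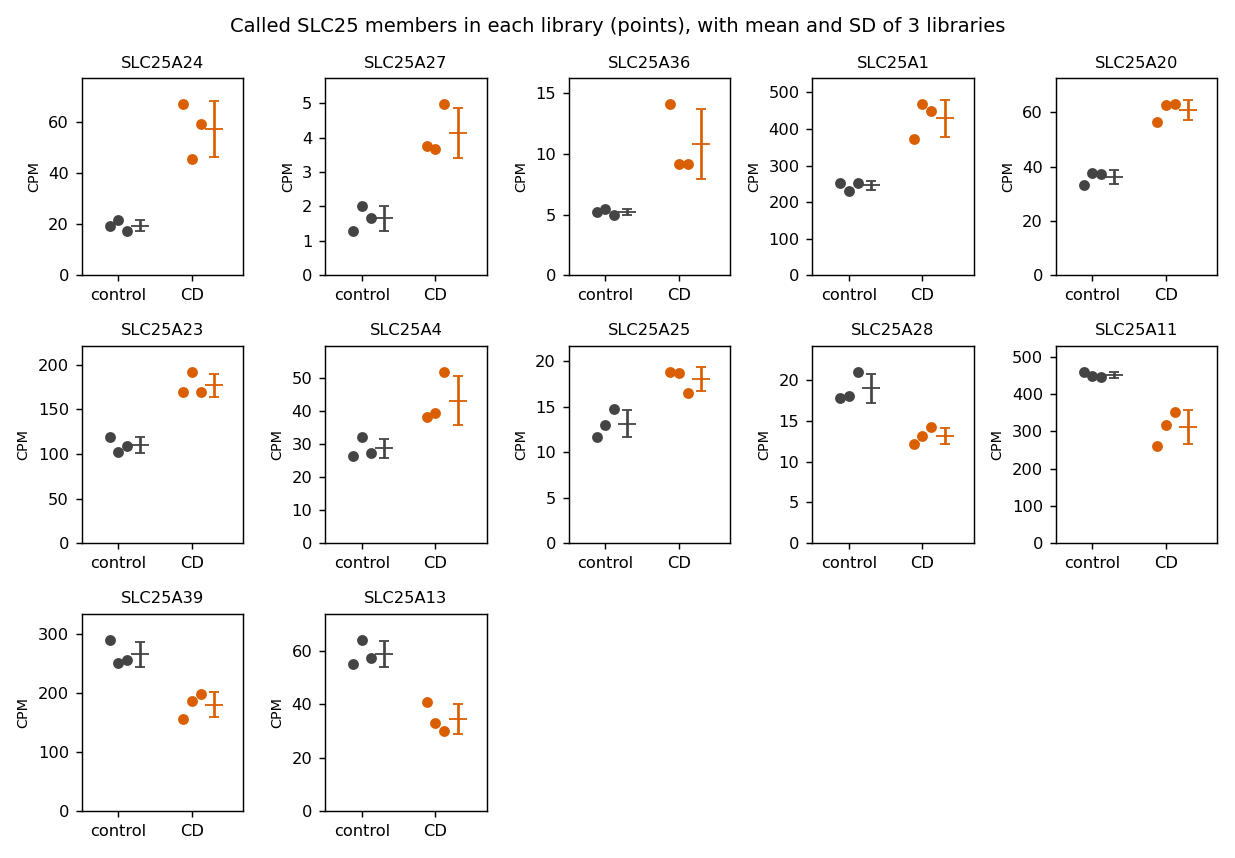
Level of 12 called SLC25 members in each library (points, CPM after TMM scaling, axes from 0), with mean and SD of 3 libraries per group, for control (grey) and CD (orange). In each panel the CD libraries lie on one side of the control libraries, from SLC25A24, with a log2FC of 1.56, to SLC25A13, with a log2FC of -0.77.

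SLC25A27 (UCP4), a relative of the uncoupling proteins known mainly from the nervous system, was higher from a low level. It was at 1.29, 2.02 and 1.65 CPM in control and at 3.75, 3.68 and 4.97 CPM in CD, without overlap (log2FC 1.31 ± 0.25 SE, edgeR FDR 0.00180). These levels correspond to between 18 and 30 reads per control library and between 60 and 69 per CD library. SLC25A30 was not called (log2FC -0.33 ± 0.33 SE), with a log2FC of -0.75 without CD replicate 1 (edgeR FDR 0.0552) and -0.10 without CD replicate 3. Among 8 tested inner membrane carriers or relatives with other symbols, 1 was higher and 3 were lower. SFXN3 was the highest at 0.40 and SFXN4 the lowest at -0.87, both sideroflexins, and UCP2 fell from 227 ± 15.8 to 141 ± 10.2 CPM (log2FC -0.69 ± 0.11 SE, edgeR FDR 0.000709), while UCP3 had no reads and UCP1 had 1. No gene of this list was higher without control replicate 2 or 3 or CD replicate 2, and 5 were lower when CD replicate 3 was left out.

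The members of other or unassigned roles, SLC25A35, SLC25A43 and SLC25A46, were not called, with log2FCs of 0.00, 0.23 and 0.54. SLC25A46, which acts at the outer membrane in mitochondrial dynamics, was at 9.74, 12.6 and 9.59 CPM in control and at 20.6, 12.5 and 13.4 CPM in CD replicates 1, 2 and 3, so that CD replicate 1 stood apart and the groups overlapped (edgeR FDR 0.0718), though SLC25A46 was called at 0.60 without CD replicate 3 (edgeR FDR 0.00666) and was at 0.29 without CD replicate 1. SLC25A43 was at 0.15 without CD replicate 1. SLC25A35 and SLC25A46 overlap another protein-coding gene in the RefSeq annotation of mink assembly ASM_NN_V1, which is not the assembly used by the authors, and SLC25A3 overlaps a small nucleolar RNA gene. None of the 13 called members overlaps a gene there.

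Of the 6 rows that the table describes as family members without an SLC25 symbol, 4 were tested, of which 1 was higher and 1 lower. The row named S2542 and described as member 42, a coenzyme A carrier, was at 12.7, 14.5 and 15 CPM in control and at 39.5, 45.3 and 32.4 CPM in CD, well separated (log2FC 1.47 ± 0.16 SE, edgeR FDR 6.63e-05). The row named SAMC and described as member 26, which imports S-adenosylmethionine, was at 37.3, 38.2 and 39.7 CPM in control and at 14.8, 16.7 and 24.1 CPM in CD, all lower (log2FC -1.06 ± 0.18 SE, edgeR FDR 0.00108). The row described as member 16 was not called (log2FC 0.53, edgeR FDR 0.162), but its log2FC was 0.64 and called without CD replicate 3 (edgeR FDR 0.0252) and 0.12 without CD replicate 1. Those described as members 14 and 21 had at most 1 read in any library. Among the mitochondrial one-carbon enzymes, 1 of 4 tested was higher and 2 were lower. SHMT2, which makes one-carbon units from serine, fell from 477 ± 16.4 to 191 ± 16.1 CPM (log2FC -1.32 ± 0.11 SE, edgeR FDR 1.18e-05). The higher enzyme, MTHFD2L (0.94), was not called without control replicate 1 or 3.

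Carriers reach the inner membrane through the TOM complex, small TIM chaperones and the TIM22 translocase. Of 9 genes of this route that were found and tested, 0 were higher and 4 were lower, with a median log2FC of -0.33, and 8 were lower without CD replicate 3, while 1 was higher without CD replicate 1. At an unadjusted p under 0.05 in edgeR, 1 gene of the route was higher, and DESeq2 and limma-voom called 0 higher. TOMM40, the channel of the outer membrane, was the lowest, at 270, 228 and 227 CPM in control and at 80.1, 107 and 112 CPM in CD (log2FC -1.27 ± 0.15 SE, edgeR FDR 8.78e-05), with no overlap of the groups. TIMM22, the core of the translocase that inserts SLC25 proteins, was at 76.2, 70.1 and 77.9 CPM in control and at 37.8, 38.7 and 44.6 CPM in CD, likewise without overlap (log2FC -0.89 ± 0.12 SE, edgeR FDR 0.000238). Of 12 tested genes of mitochondrial content and its regulators, 1 was higher and 7 were lower. These counts and those of the import route stand beside 24.8% higher and 22.9% lower of all genes. ESRRA, a nuclear receptor of mitochondrial genes, was the highest at 0.48, and PPRC1, a coactivator related to PGC-1α, the lowest at -1.25.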

How the data were processed

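Whole-number read counts per gene were used as deposited by the authors, for 3 control and 3 CD libraries of Mv1Lu cells. Per the study's methods and processing notes, poly(A) RNA was converted to Nextera XT libraries, reads were trimmed with fastp 0.20.1 and mapped to the mink assembly NNQGG.v01 with STAR 2.7.2a, and the authors analysed the counts in R 4.0.3 with DESeq2 1.30.1. The counting program and the use of strand are not given in the sources used here. Normalized tables, 1 per sample, were not used, since the counts hold the same libraries before scaling.

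The 4 rows that name no gene (29.3% to 47.2% of the reads, unmapped reads included) were left out. The counts were filtered with filterByExpr (count minimum 10, total 15), scaled by TMM and fitted over all genes with robust glmQLFit and glmQLFTest of edgeR 4.0.16 in R 4.3.3, CD against control without covariates. Fold changes are on the log2 scale, FDR is the Benjamini-Hochberg adjusted p, and the threshold was 0.05. The steps were tested on simulated data. Ratios were compared by an exact two-sided permutation test over 6 libraries. The libraries of each group differed by more than sampling noise and were all kept. Alternatives were DESeq2 1.42.0, limma-voom 3.58.1, other scalings and count filters, a replicate block and the omission of each library.

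The tested members were named, except that some genes are counted in the totals but not reported here. Of the fatty acid and sterol lists the genes next to citrate were given. Of the other lists the highest and lowest called genes and the enzymes that supply a carrier were given. ACACB, SREBF1, LBR, ALAS1, FECH, UROS, TFRC, UCP2 and TIMM22 were chosen after their values were seen. So were the library values of SLC25A38 and SLC25A46, and the rows of the family with other symbols. Listed genes without a row under that symbol were not analysed here. The members and lists were chosen with earlier results of these data known.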

Additional observations from a re-analysis of the deposited data

How the results depend on the processing

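Across the 14 alternative analyses, 10 members were called in the same direction in each, 6 higher (SLC25A1, SLC25A20, SLC25A23, SLC25A24, SLC25A27 and SLC25A36) and 4 lower (among them SLC25A11, SLC25A13 and SLC25A39). With 1 library left out, between 6 and 9 members were higher and between 4 and 9 lower. Lists moved as follows when 1 library was left out. The number lower was 1 to 2 for cholesterol biosynthesis, 3 to 8 for pyruvate and the citric acid cycle, 1 to 4 for the heme and iron list, 2 to 5 for carriers with other symbols and 3 to 8 for carrier import. The number higher was 14 to 17 for cholesterol biosynthesis, 1 to 2 for the carnitine cycle and 1 to 2 for the malate-aspartate list. It was 0 to 1 for one-carbon enzymes, carriers with other symbols and carrier import. With at least 50 counts in 3 libraries, fewer genes were tested, and 1 gene of the fatty acid list was lower and 0 one-carbon enzymes were higher. Without the filter, 1 gene of carrier import was higher. The causes were not tested.

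Members near 0 changed sign. SLC25A35 was at -0.02 with DESeq2 and with its size factors, at 0.00 without the filter, and between -0.07 and 0.11 with 1 library left out. ACACA lay between -0.37 and 0.26 and the log2 ratio of SLC25A1 to FASN between -0.37 and 0.10 in the same analyses.

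The labels give replicate numbers in both groups, but libraries with the same number did not deviate together (r across genes -0.0184, -0.443 and -0.208 for replicates 1, 2 and 3), and no library correlated best with its own number, so the numbers were not taken as pairs. With the replicate number as a block, 7 members were higher and 4 lower, with SLC25A25 and SLC25A28 no longer called, and 3 genes of pyruvate and the citric acid cycle were lower. The block gave 2772 higher and 2636 lower genes in all, beside 3016 and 2784 without it.

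The spread was unequal, with a biological coefficient of variation of 0.0859 in control and 0.222 in CD. Members with few reads, such as SLC25A27, SLC25A30, SLC25A31 and SLC25A40, had standard errors of 0.22 to 0.33 on the log2 scale, so small changes of these may have been missed. SLC25A40 at 0.36 (SE 0.22) and SLC25A31 at -0.34 (SE 0.31) were beyond their standard errors and still not called.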
